A study of Homo sapiens with 8 samples.

Results

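The loci of 6 transcription factors that mark lineages of the lung (NKX2-1, FOXA1, FOXA2, GATA6, SOX2 and TP63) and of 1 surfactant gene, SFTPB, were examined for open chromatin in H1650, an established line derived from a human lung adenocarcinoma. Each locus was taken as a fixed hg19 window around the gene. The windows were chromosome 14 from 36900000 to 37050000 for NKX2-1 and from 38000000 to 38120000 for FOXA1, chromosome 20 from 22500000 to 22620000 for FOXA2, and chromosome 18 from 19700000 to 19830000 for GATA6. On chromosome 3 they ran from 181380000 to 181480000 for SOX2 and from 189300000 to 189660000 for TP63, and on chromosome 2 from 85860000 to 85920000 for SFTPB. A region is the union of overlapping or touching peaks from 8 ATAC-seq lists, and a region is open, or listed, in a library whose list has a peak in it. Of 46665 regions in all, 29 overlapped the windows. The windows follow gene positions and use no measured value.

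In ATAC-seq a transposase cuts and tags DNA where chromatin is accessible, and a peak is a site with many cuts. There were 4 groups of 2 libraries, all of H1650 cells in the same serum-containing medium. The siMena11a cells received a mix of siRNAs against exon 11a of ENAH, the gene of the actin regulator hMENA, which marks its epithelial isoform hMENA11a. The siMena cells received a pool against hMENA as a whole, and the siControl cells a non-targeting pool, each at 20 nmol/L with a lipid reagent. Untreated cells were not transfected. No label gives the time between transfection and harvest, and nothing in the labels says that the 2 replicates of a group were separate cultures. Knockdown acts on mRNA and cannot be checked from these lists.

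NKX2-1 is a homeodomain factor of the distal lung and the thyroid and the usual diagnostic marker of lung adenocarcinoma. FOXA1 and FOXA2 are forkhead pioneer factors that can bind closed chromatin, and GATA6 is a zinc finger factor of the endoderm; together with NKX2-1 they activate surfactant genes in alveolar type II cells. SFTPB encodes surfactant protein B, which spreads the lipid film of the alveolus. SOX2 and TP63 are factors of the proximal airway and of basal cells, and both genes lie on the long arm of chromosome 3, which is often amplified in squamous lung cancer.

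Sequences before RefSeq gene starts are shown for a lineage factor, for its surfactant target and for the locus with the most regions, to show the letters there; the start of NKX2-1 was picked for its matches. They come from RefSeq on GRCh38.p14, a build other than that of the peaks, so whether a listed region covers them was not determined. RefSeq entries were found for 6 of the 7 genes, 8 starts in all. Each line holds the 250 bases before a start, 5′ to 3′ on the strand of the gene, with matches to a searched motif in capitals. The second start of NKX2-1 (chr14:36519557-36519806, minus strand), the first of SFTPB (chr2:85668742-85668991, minus strand) and the one of TP63 (chr3:189631139-189631388, plus strand) follow.
NKX2-1 start 2: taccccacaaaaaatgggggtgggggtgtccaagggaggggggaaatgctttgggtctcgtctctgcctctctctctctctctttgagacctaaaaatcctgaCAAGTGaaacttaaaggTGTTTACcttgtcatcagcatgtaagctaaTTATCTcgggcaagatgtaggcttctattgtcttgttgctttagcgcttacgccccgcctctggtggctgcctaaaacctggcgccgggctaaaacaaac
SFTPB start 1: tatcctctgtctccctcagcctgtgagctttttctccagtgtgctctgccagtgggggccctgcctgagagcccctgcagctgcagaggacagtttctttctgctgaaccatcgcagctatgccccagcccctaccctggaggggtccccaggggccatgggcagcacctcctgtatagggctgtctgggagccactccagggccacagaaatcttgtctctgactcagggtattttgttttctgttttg
TP63 start 1: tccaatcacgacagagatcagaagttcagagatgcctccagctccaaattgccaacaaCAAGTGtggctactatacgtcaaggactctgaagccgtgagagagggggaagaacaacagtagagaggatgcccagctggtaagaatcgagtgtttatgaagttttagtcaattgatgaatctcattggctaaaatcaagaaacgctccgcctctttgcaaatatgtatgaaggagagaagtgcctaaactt

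The motifs were searched on both strands. TGTTTAC, a forkhead core, was in 2.98% of all 35116 promoter sequences of the same length, CACTTG, an NKX core, in 9.50%, and the core of zinc finger factors such as GATA6, AGATAA, in 9.17%. The TATA box letters TATAAA were in 10.7% and the SOX core ACAATG in 9.29%, and neither was in any of the 8 sequences of these genes. NKX2-1 start 2 held a forkhead, an NKX and a GATA match, whose first letters lay 130, 147 and 100 bases before the start and which did not overlap. TP63 held 1 NKX match, read as CAAGTG, at 192 bases, and FOXA1 start 1 held 1, CACTTG, at 12 bases. SFTPB start 1 and the remaining starts held no match. A looser forkhead form, TGTTTNC, was searched first and was narrowed after its matches had been seen. It was in 15.5% of all promoter sequences and, beside NKX2-1 start 2, in NKX2-1 start 1, FOXA1 start 1 and SFTPB start 1, there as TGTTTTC 14 bases before the start. A match is a run of letters and not a shown binding site. The sequences before both SFTPB starts were poor in CpG, with an observed over expected ratio of 0.0478 and 0.130, against a median of 0.558 over all promoters. Those before FOXA1, GATA6, SOX2 and NKX2-1 start 1 had 0.977, 0.699, 0.682 and 0.614, above that median. Those before NKX2-1 start 2 and TP63 had 0.455 and 0.502, below it.

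Lists differed in length and libraries in depth. The lists held 35472 and 2832 peaks with siMena11a, 14678 and 1020 with siMena, 27304 and 5231 with siControl, and 34782 and 22424 in untreated cells, replicate 1 before replicate 2. The genome-wide background recovered from the lists, a measure of depth in tags per position, ran from 0.538 to 0.935 in the replicate 1 libraries and from 1.09 to 2.88 in replicate 2. At that background a summit needed 5 to 7 tags to be listed in replicate 1 and 7 to 13 in replicate 2, which was a fold of 3.61 to 4.13 over all libraries. The fold, a value the authors deposited, divides the tags at a summit by those of the local background after adding 1 to both. Where the local background is higher, more tags but a lower fold suffice. An unlisted region is one that did not reach this limit, not one shown to be closed.

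The 7 windows spanned 1040 kb and held 27.9 regions per Mb, against 15.7 per Mb over the spans of chromosomes 1 to 22 and X that the lists cover. Windows around other genes were not counted, so whether the higher density is particular to lineage loci was not determined. The regions were unevenly spread, with 13 in the TP63 window, 5 at FOXA1, 3 each at GATA6, SOX2 and SFTPB, 2 at NKX2-1 and 0 at FOXA2. Per Mb, the FOXA1 window held 41.7 regions, TP63 36.1, SOX2 30.0, GATA6 23.1 and NKX2-1 13.3, and the short SFTPB window the most. With regions joined within 500 bp, FOXA1 had 2 regions (16.7 per Mb) and NKX2-1 had 1 (6.67 per Mb), so that FOXA1 came below TP63, SOX2 and GATA6. Regions are numbered here along the chromosome within their window. They were up to 903 bp wide with a median of 336 bp, against 394 bp over all regions. Of the 29 regions, 5 (17.2%) were listed in 4 libraries or more, against 38.2% of all regions, and 10 (34.5%) in 1 library, against 31.2%. None was listed in 7 or in all 8 libraries, where 3.18% and 1.16% of all regions stood. Members of a window share their source of DNA and their libraries, so they are not independent points.

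**Figure D1:**
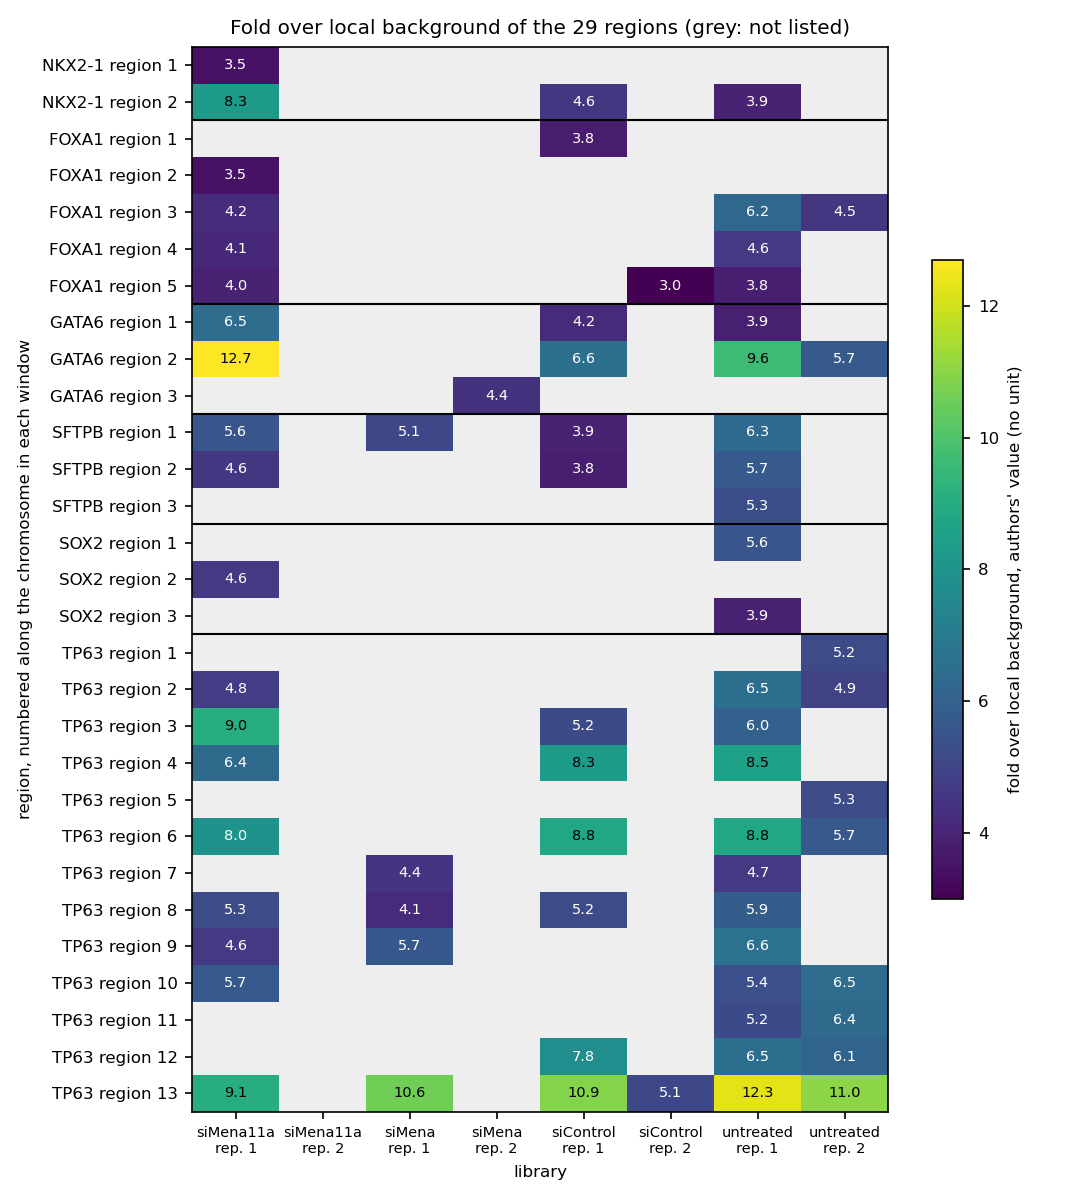
Fold over local background (colour and number, authors' values without unit) of each of the 29 regions (rows, grouped by window) in each library (columns); grey cells were not listed. The siMena11a replicate 2 column is empty, and TP63 region 13 is filled in 6 of 8 libraries, with its highest fold of 12.3 in untreated replicate 1.

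Among the loci of the endodermal factors, FOXA1 and GATA6 held regions and FOXA2 none. The nearest regions outside the FOXA2 window lay 128556 bp before it, listed in 6 libraries, and 52320 bp after it, listed in 3. A FOXA2 window without a listed region therefore held in every group, the untreated cells included.

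FOXA1 had a group of 3 regions within about 2 kb of each other, which joining within 500 bp made 1, and a pair 10.9 and 10.6 kb away. FOXA1 region 3 (chr14:38063477-38063929) had a fold of 4.25 in siMena11a replicate 1, was not listed in replicate 2, in either siMena or in either siControl library, and had 6.25 and 4.55 in untreated replicates 1 and 2. It was the FOXA1 region listed in both untreated libraries. FOXA1 region 4 (chr14:38064100-38064670) had folds of 4.12 in siMena11a replicate 1 and 4.62 in untreated replicate 1. FOXA1 region 5 (chr14:38065118-38065508) had 3.95 in siMena11a replicate 1, 3.01 in siControl replicate 2 and 3.81 in untreated replicate 1. All FOXA1 folds other than the 6.25 lay in the lowest 15% of the folds in their lists, with percentiles of 1.29 and above. FOXA1 regions 1 and 2 lie 2 bp apart, 1 listed in siControl replicate 1 and the other in siMena11a replicate 1, and the same joining made them 1.

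GATA6 held the highest fold of the 29 regions. GATA6 region 2 (chr18:19803650-19804025) had a fold of 12.7 in siMena11a replicate 1, 6.57 in siControl replicate 1, and 9.64 and 5.74 in untreated replicates 1 and 2. The other 4 lists, both of siMena among them, lacked it. The siMena11a value stood at percentile 98.2 of its list, the siControl value at 51.4, and the untreated values at 81.5 and 39.8. In tags, the summit held 28 in siMena11a replicate 1, 12 in siControl replicate 1, and 15 and 11 in the untreated libraries, so few reads carry each fold. The untreated values span the siControl value, and 1 siMena11a library listed the region, so no difference between groups can be read from it.

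GATA6 region 1 (chr18:19748988-19749787), 54.5 kb before region 2 and 800.0 bp wide, was listed in the replicate 1 libraries of siMena11a, siControl and untreated cells, with folds of 6.48, 4.19 and 3.85. GATA6 region 3 (chr18:19812237-19812496) was listed in siMena replicate 2 alone, the shortest list, with a fold of 4.41 and 20 tags over a local background of 3.76. It was the single one of the 29 regions that the shortest list carried.

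NKX2-1 had 2 regions separated by 317 bp, and neither was listed in any replicate 2 library or in siMena replicate 1. NKX2-1 region 2 (chr14:36989821-36990131) had a fold of 8.29 in siMena11a replicate 1, 4.59 in siControl replicate 1 and 3.92 in untreated replicate 1. These stood at percentiles 73.6, 12.1 and 2.44 of their lists, and the summits held 33, 17 and 11 tags. Scaled by the genome-wide background, the summit reached 37.5 times in siMena11a, 18.2 times in siControl and 20.4 times in untreated replicate 1, so siControl and untreated changed places between the 2 scales. NKX2-1 region 1 (chr14:36989304-36989503) was listed in siMena11a replicate 1 with a fold of 3.48. In the RefSeq gene order, NKX2-1 overlaps SFTA3 and NKX2-1-AS1, and the build of the files allowed no assignment of a region to one of them. A region listed in 4 libraries lay 96 bp outside the far edge of this window and is not counted.

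The SFTPB window held 3 regions. SFTPB region 1 (chr2:85864621-85864993) had folds of 5.56 in siMena11a, 5.10 in siMena, 3.93 in siControl and 6.32 in untreated replicate 1. It was listed in every replicate 1 library and in no replicate 2 library. SFTPB region 2 (chr2:85906271-85906555), 41.6 kb further on, had 4.57 in siMena11a, 3.80 in siControl and 5.73 in untreated replicate 1, and SFTPB region 3 (chr2:85908479-85908906) had 5.34 in untreated replicate 1. In both of the first 2 regions the siControl fold was the lowest of those listed. USP39 and GNLY are the neighbouring protein-coding genes in the RefSeq order, and the gene itself is 11.4 kb long in a window of 60.0 kb, so a region in the window need not belong to SFTPB.

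At the loci of the squamous and basal factors, SOX2 had 3 regions and TP63 the most of all. Each SOX2 region was listed in 1 library. SOX2 region 1 (chr3:181418290-181418489) had a fold of 5.56 and SOX2 region 3 (chr3:181430424-181430740) of 3.88, both in untreated replicate 1, and SOX2 region 2 (chr3:181429537-181429859) had 4.61 in siMena11a replicate 1. Regions 2 and 3 lay 564 bp apart. No SOX2 region was listed in any siMena or siControl library, in siMena11a replicate 2 or in untreated replicate 2. The lists that carried them, siMena11a and untreated replicate 1, were the longest, with 35472 and 34782 peaks. Over all regions, 31.2% were listed in 1 library.

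TP63 region 13 (chr3:189655268-189656057) was the region listed in the most libraries. Its fold was 9.05 in siMena11a replicate 1, 10.6 in siMena replicate 1, 10.9 and 5.11 in siControl replicates 1 and 2, and 12.3 and 11.0 in untreated replicates 1 and 2. It was not listed in replicate 2 of siMena11a or of siMena. The replicate 1 and untreated values lay between 9.05 and 12.3, and siControl replicate 2 was the low one. The summit held 43 tags in siMena11a replicate 1, 35 in siMena replicate 1, 50 and 17 in siControl, and 52 in each untreated library. Its percentile within the list was 81.2 in siMena11a replicate 1, 97.7 in siMena replicate 1, 94.2 and 54.4 in siControl and 95.5 and 96.6 in untreated cells. It lies 3943 bp from the far edge of the window, and a region listed in 5 libraries follows 2024 bp beyond that edge. The TP63 gene is 301 kb long in the RefSeq table and the window 360.0 kb, so part of the window is outside the gene. TPRG1 and P3H2 are the neighbouring protein-coding genes in the RefSeq order, so a region in the window, region 13 included, need not belong to TP63.

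The other 12 TP63 regions were spread over the 349 kb before region 13 and were listed in 1 to 4 libraries each. TP63 region 6 (chr3:189551824-189552213) had folds of 7.97 in siMena11a replicate 1, 8.76 in siControl replicate 1, and 8.82 and 5.71 in untreated replicates 1 and 2. TP63 region 8 (chr3:189560493-189561395), the widest of the 29, had 5.26 in siMena11a, 4.14 in siMena, 5.24 in siControl and 5.86 in untreated replicate 1. Both had near-equal folds in siMena11a and siControl replicate 1. TP63 region 3 (chr3:189474363-189474785) had 9.04 in siMena11a, 5.17 in siControl and 5.98 in untreated replicate 1, whereas TP63 region 4 (chr3:189484196-189484541) had 6.37, 8.27 and 8.54 in the same libraries. These 2 neighbours, 9410 bp apart, thus stood in opposite order between siMena11a and siControl.

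**Figure D2:**
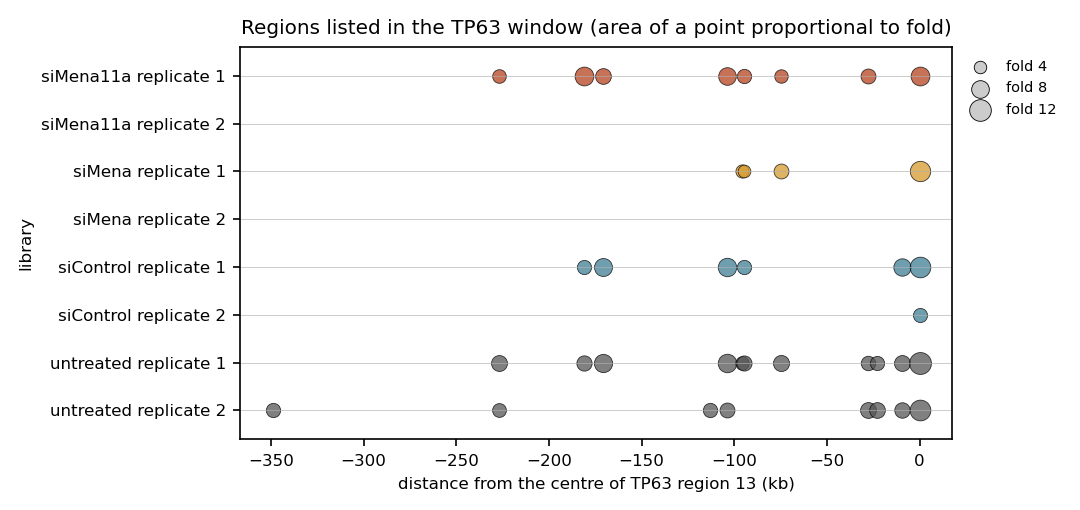
Regions listed in the TP63 window by library (rows) against the distance from the centre of TP63 region 13 in kb (horizontal axis); the area of a point is proportional to the fold. Untreated replicates 1 and 2 listed 11 and 8 regions, siMena11a replicate 1 listed 8, siControl replicate 1 listed 6, and region 13 is the only one present in siControl replicate 2.

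Longer lists mostly carried more of the lineage-locus regions. The number listed was 19 and 0 with siMena11a, 5 and 1 with siMena, 12 and 2 with siControl, and 22 and 10 in untreated cells, replicate 1 before replicate 2. As a share of the 29 regions this was 65.5% and 0% with siMena11a, against 74.6% and 5.92% of all 46665 regions. With siMena it was 17.2% and 3.45%, against 30.2% and 2.14%. With siControl it was 41.4% and 6.90%, against 56.7% and 10.9%. In untreated cells it was 75.9% and 34.5%, against 72.4% and 46.4%. In 6 of 8 libraries the lineage-locus share was the lower one, and it was the higher one in siMena replicate 2 and untreated replicate 1. In each library the 95% exact Clopper-Pearson interval of the 29 regions held the share of all regions; for the 0 of 29 in siMena11a replicate 2 it reached 11.9%. These intervals cover counting error over regions only.

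**Figure D3:**
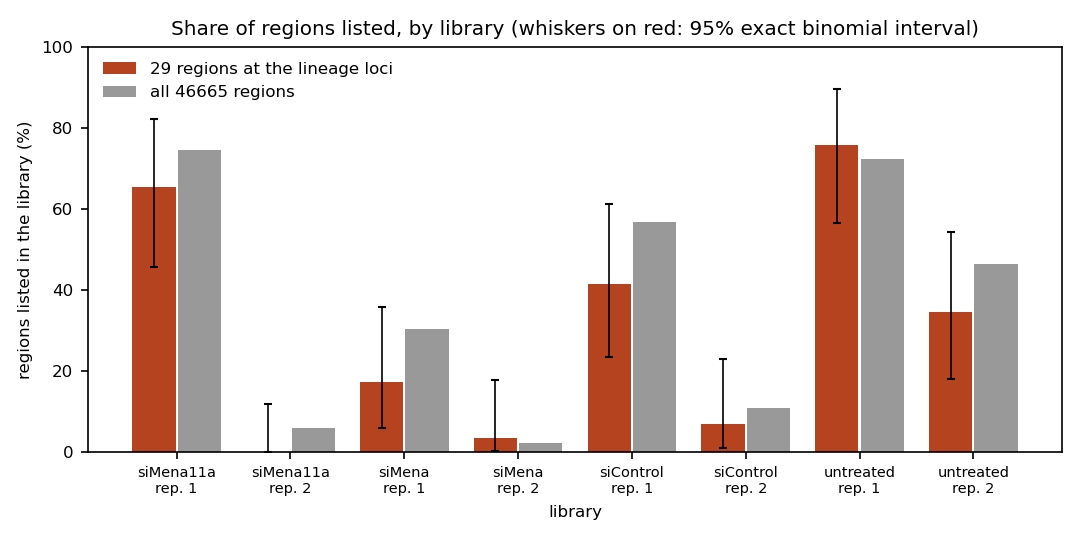
Share of regions listed in each library (%), for the 29 lineage-locus regions (red, with 95% exact binomial intervals) and for all 46665 regions (grey). The red bars range from 0% in siMena11a replicate 2 to 75.9% in untreated replicate 1, and every interval contains the grey value.

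In the replicate 1 libraries and untreated replicate 2, the folds at these loci were low within their lists. The median fold of the listed lineage-locus regions was 5.26 in siMena11a replicate 1, where that of all listed regions was 6.62. It was 5.10 against 6.11 in siMena replicate 1, 5.20 against 6.49 in siControl replicate 1, and 5.79 against 6.99 in untreated replicate 1. In untreated replicate 2 it was 5.73 against 6.22. The median percentile within the list was 23.5, 23.8, 23.8, 27.8 and 39.3 in these libraries in the same order. The 1 region of siMena replicate 2 had 4.41 against 4.30, at percentile 54.0, and the 2 of siControl replicate 2 a median of 4.06 against 4.93, at percentile 28.5. Of the lineage-locus regions listed, 5 of 19 stood above the median of the list in siMena11a replicate 1, 1 of 5 in siMena replicate 1, 5 of 12 in siControl replicate 1, and 4 of 22 and 3 of 10 in untreated replicates 1 and 2. In replicate 2 of siMena and siControl these were 1 of 1 and 1 of 2.

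Silencing of hMENA11a was set against the non-targeting siRNA to see whether lineage loci open or close with it. Of the 29 regions, 0 were listed in both siMena11a libraries and neither siControl library, where 0.0279% of all regions were, and 0 showed the opposite pattern, where 0.0557% of all regions did. The first count could not be above 0, because siMena11a replicate 2 listed none of the 29. No region was open in all 4 libraries, where 4.43% of all regions were, and for the same reason this count could not be above 0. The opposite pattern needs listing in both siControl libraries. Among the 29 regions that held for TP63 region 13 alone, and siMena11a replicate 1 listed it. Within replicate 1, siMena11a alone listed 9 regions (31.0%), siControl alone 2 (6.90%) and both 10 (34.5%), against 24.2%, 6.25% and 50.4% of all regions. The 9 included NKX2-1 region 1, SOX2 region 2 and FOXA1 regions 2 to 5, and the 2 were FOXA1 region 1 and TP63 region 12. Within replicate 2, siMena11a alone listed 0 and siControl alone 2, FOXA1 region 5 and TP63 region 13, and both listed 0, against 1.03%, 5.97% and 4.90% of all regions. The 0 counts there follow from siMena11a replicate 2 listing none of the 29. The longer list was that of siMena11a in replicate 1 and that of siControl in replicate 2, and all regions and the 29 alike were more often listed in the longer one alone. Since 2 libraries against 2 allow no two-sided exact permutation p below 0.333, no region was tested.

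At the 10 regions listed in replicate 1 of both siMena11a and siControl, the fold was higher in siMena11a at 7 (70.0%), against 65.5% of the 23530 regions listed in both libraries. The median log2 ratio of folds, siMena11a over siControl, was 0.38 over the 10 and 0.13 over the 23530. All 5 of the regions outside the TP63 window (NKX2-1 region 2, GATA6 regions 1 and 2, SFTPB regions 1 and 2) had a higher fold in siMena11a, with log2 ratios from 0.27 to 0.95, and 2 of the 5 in the TP63 window did, with ratios from -0.38 to 0.81. This division by window was made after the values were seen. It rests on 1 library per group, and siMena11a replicate 2 gives no value for any of them.

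**Figure D4:**
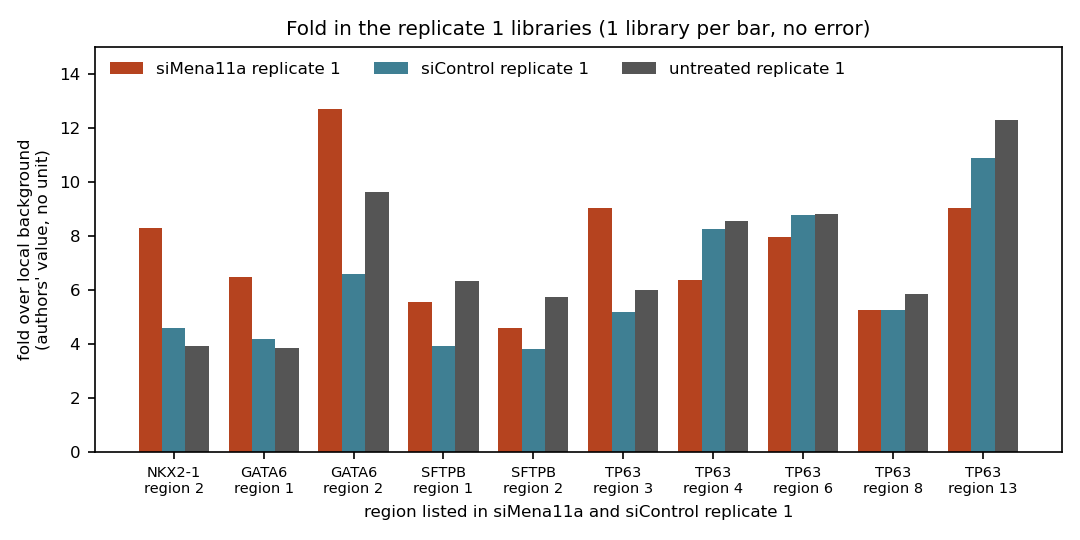
Fold over local background (authors' values, no unit) at the 10 regions listed in both siMena11a and siControl replicate 1, with untreated replicate 1 alongside; each bar is 1 library, so there is no error. At the NKX2-1, GATA6 and SFTPB regions the siMena11a bar is above the siControl bar, and at TP63 regions 4, 6 and 13 it is below.

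Silencing of hMENA as a whole was set against the same control. Of the 29 regions, 0 were listed in both siMena libraries and neither siControl library (0.00214% of all regions) and 0 in the opposite way (1.03% of all regions). None was open in all 4 libraries, where 1.36% of all regions were. The siMena lists shared no lineage-locus region with each other, so the first count and the count open in all 4 libraries could not be above 0. The opposite count could come only from TP63 region 13, the one region of the 29 in both siControl lists, and siMena replicate 1 listed it. Within replicate 1, siMena alone listed TP63 regions 7 and 9, siControl alone 9 regions, and both SFTPB region 1 and TP63 regions 8 and 13. These were 6.90%, 31.0% and 10.3% of the 29, against 1.81%, 28.2% and 28.4% of all regions. The 9 included NKX2-1 region 2, GATA6 regions 1 and 2 and TP63 regions 3, 4, 6 and 12. Within replicate 2, siMena alone listed GATA6 region 3 siControl alone FOXA1 region 5 and TP63 region 13, and both 0, against 0.326%, 9.06% and 1.81% of all regions. TP63 and SFTPB were thus the only loci with a region in siMena replicate 1. That list was also the shorter one, with 14678 peaks against 27304, and the part of list length in this was not tested.

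Transfection with the non-targeting siRNA pool was examined with siControl against untreated cells. The lipid reagent and the siRNA were given together, so they cannot be told apart. Here 4 of the 29 regions (13.8%) were listed in both untreated libraries and in neither siControl library, against 3.65% of all regions. They were FOXA1 region 3 and TP63 regions 2, 10 and 11, and 0 regions had the opposite pattern, against 0.120% of all regions. That opposite count could come only from TP63 region 13, which both siControl lists carried, and both untreated lists carried it too. TP63 region 2 (chr3:189428485-189428742) had folds of 6.50 and 4.91 in untreated cells, TP63 region 10 (chr3:189627425-189627760) 5.38 and 6.45, and TP63 region 11 (chr3:189632632-189632954) 5.19 and 6.36. Regions 10 and 11 lie 4871 bp apart, and both had their higher fold in untreated replicate 2. FOXA1 region 3 and TP63 regions 2 and 10 were listed in a transfected library, siMena11a replicate 1, with folds of 4.25, 4.78 and 5.73. TP63 region 11 was the one of the 4 absent from all 6 transfected libraries. With 27304 and 5231 peaks, the siControl lists were also the shorter ones, and the part of list length in the 4 regions was not tested.

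In untreated replicates 1 and 2 the summits held 23 and 16 tags at FOXA1 region 3, 9 and 10 at TP63 region 2, 9 and 15 at region 10, and 7 and 13 at region 11. The scores the authors deposited there, which begin at 20 in the lists, were 110 and 54, 67 and 43, 49 and 81, and 44 and 73 in the same order of regions. With lists held to a −log10 q of at least 5, 1 of the 4 patterns was left, and with lists shortened to equal length 0 were. Without siControl replicate 1 the count was 7, and without untreated replicate 2 it was 10. Shares over all regions were not computed under these settings, so the changes cannot be read as particular to the lineage loci. TP63 region 13 was the single lineage-locus region open in all 4 libraries of this comparison (3.45%, against 9.33% of all regions). Within replicate 1, siControl alone listed 1 region, untreated cells alone 11 and both 11, which were 3.45%, 37.9% and 37.9%, against 6.93%, 22.7% and 49.7% of all regions. Within replicate 2 these numbers were 1, 9 and 1, or 3.45%, 31.0% and 3.45%, against 1.07%, 36.6% and 9.80%.

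Of the 22 lineage-locus regions of untreated replicate 1, 16 (72.7%) were listed in siMena11a replicate 1, 11 in siControl replicate 1 and 5 (22.7%) in siMena replicate 1. These shares over all 33804 regions of that library were 79.6%, 68.7% and 40.0%. In untreated replicate 2 the share was 36.4% (8 of 22), against 51.4%. All 4 shares from untreated replicate 1 were below those over all regions, also between the untreated replicates, where no treatment differs. In the reverse direction, 8 of the 10 regions of untreated replicate 2 were listed in untreated replicate 1, near the 80.2% over all regions. From siMena11a replicate 1, 84.2% (16 of 19) were listed in untreated replicate 1, above 77.2%, and 52.6% (10 of 19) in siControl replicate 1, below 67.6%. From untreated replicate 2, 60.0% were listed in siMena11a replicate 1, 40.0% in siControl replicate 1 and 10.0% in siMena replicate 1. Over all regions these were 82.9%, 75.0% and 51.5%. From siMena11a replicate 1, 31.6% were listed in untreated replicate 2 and 21.1% in siMena replicate 1, against 51.6% and 39.1%. Among all shares taken from these libraries, only that from siMena11a replicate 1 to untreated replicate 1 was above the share over all regions. The cause was not tested.

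The last comparison set siMena11a against siMena directly. Of the 29 regions, 0 were listed in both siMena11a libraries and neither siMena library (0.240% of all regions), and 0 in the opposite way (0.00643%). None was open in all 4 libraries, where 1.28% of all regions were. None of these counts could be above 0, because siMena11a replicate 2 listed none of the 29 and the siMena lists shared none of them. Within replicate 1, siMena11a alone listed 15 regions, siMena alone TP63 region 7, and both SFTPB region 1 and TP63 regions 8, 9 and 13. These were 51.7%, 3.45% and 13.8% of the 29, against 45.5%, 1.07% and 29.2% of all regions. At these 4 shared regions the siMena11a fold was higher at 2, with a median log2 ratio of -0.05, against 0.41 and 88.0% higher over the 13610 regions listed in both. The 4 ratios ran from -0.29 to 0.35, and 3 of the regions lie in the TP63 window. With 4 regions and 1 library per group, no difference from all regions can be read from them. The 15 included every NKX2-1 region and FOXA1 regions 2 to 5. Within replicate 2, siMena11a alone listed 0, siMena alone GATA6 region 3 and both 0, against 4.18%, 0.390% and 1.75% of all regions. The comparisons with siControl share its 2 libraries, so their counts are not independent.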

How the data were processed

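Each deposited file holds the peaks of 1 library, called without pooling. The submitters' processing notes name MACS2 2.2.5, SAMtools 1.7, Bowtie2 2.3.4.2, FastQC 0.11.5 and build hg19; read trimming, duplicate filtering and any shift for the transposase are not given in the sources used here. The labels name total RNA as the molecule, although their protocol describes ATAC-seq. A row is 1 summit. The deposited score is 10 times the −log10 q, rounded down, for 99.98% of rows or more in every list. The deposited fold is a ratio the authors' caller made of the tags at a summit and in the local background, adding 1 to both. The authors also deposited a −log10 p and a −log10 q per summit, and the lowest −log10 q of a list was 2.00 to 2.02.

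Distinct intervals of the 8 lists were joined into regions on overlap or contact; an overlap of at least 1 bp made a region open in a library. The fold of a region is its highest summit. Tags and local background were recovered from fold and −log10 p by solving the caller's Poisson probability, to within 0.001 for 100.0% of the rows checked (1003 to 1178 per list); the genome-wide background is the low end (1st percentile) of these local backgrounds. Coordinates are hg19, counted from 1. No annotation of hg19 was used here, so a further list of lung lineage genes was not analysed here. Region calls were run on the real lists after the peaks of a group had been removed at randomly picked regions, where the rule itself fixes the call. Tag recovery was run on simulated tags and backgrounds.

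Named regions were, per window, the one in most libraries (ties by median fold percentile), those in at least 6 libraries, and those gained or lost in any of 4 comparisons; others named were chosen after their values were seen. The loci and lists were chosen with earlier results of these data known. The forkhead motif was narrowed after matches of a looser form had been seen. Alternatives were a stricter −log10 q, shortened lists, a coverage rule, joined regions, widened windows, left-out libraries and single replicate numbers. The scripts ran under Python 3.11.15 with SciPy 1.17.1, pandas 2.3.3, numpy 2.4.6 and matplotlib 3.10.9.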

Additional observations from a re-analysis of the deposited data

How the results depend on the processing

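No paired analysis was possible because the counts come from no test; counts within 1 replicate number are given instead. For siMena11a against siControl, gained regions numbered 0, with 0 to 8 when 1 library was left out and 9 within replicate 1, and lost regions 0, with 0 to 2 when 1 library was left out and 2 within each replicate. For siMena against siControl, gained regions numbered 0, with 0 to 2 when 1 library was left out and 2 and 1 within replicates 1 and 2, and lost regions 0, with 0 to 9 and then 9 and 2. For siControl against untreated, gained regions numbered 0, with 0 to 1 and then 1 and 1. Lost regions numbered 4, with 4 to 10 when 1 library was left out, 11 and 9 within replicates 1 and 2, 1 at a −log10 q of at least 5 and 0 in shortened lists. For siMena11a against siMena, gained regions numbered 0, with 0 to 15 and 15 within replicate 1, and lost regions 0, with 0 to 1 and 1 within each replicate. The shortened lists and the stricter threshold can only drop peaks, and other causes were not tested. Shares over all regions were computed for the main setting and within replicate numbers only. The other counts therefore cannot be read as particular to the lineage loci.

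The stricter threshold left 1 region at NKX2-1, 3 at FOXA1 and 1 at SOX2, and joining within 500 bp left 1 at NKX2-1 and 2 at FOXA1. Widening by 50 kb gave 5 at NKX2-1 and 11 at SFTPB, and FOXA2 stayed at 0. Widening gave 31 regions in siMena11a replicate 1, 10 in siMena replicate 1, 21 in siControl replicate 1, and 35 and 19 in untreated cells. The stricter threshold left 2 in siMena replicate 1, and 7 and 1 in siControl replicates 1 and 2. Median folds moved by less than the spread between replicates (SD 0.545) with the mean of the summits. That SD leaves out siMena11a, which has no value in replicate 2. In replicate 2 it rests on 1 region with siMena and 2 with siControl, and the regions differ between replicates. At the genome-wide background a fold of 3.61 to 4.13 was needed for listing, and a missing region is one that did not reach the limit of its list.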
